A study of Mus musculus with 109 samples.

Results

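Gfap, Vim, Lcn2, Serpina3n, Timp1, Steap4, S1pr3, Cd44, Hspb1 and Aspg are genes that reactive astrocytes raise after many kinds of injury, and are therefore called pan-reactive. They were chosen by symbol from that published signature, matched to the count table by Ensembl identifier, and make up 10 of its 37315 genes. All 10 had a value in each retina.

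The study asked how the cytokines interleukin 1 alpha (IL1A) and tumour necrosis factor (TNF) act on the mouse retina after injection into the vitreous, and whether the prodegenerative enzyme SARM1 changes the outcome. Polyadenylated RNA of 109 whole retinas from 64 mice aged 2 to 4 months was sequenced, and both eyes of 45 mice were included. The wild type (WT) mice were C57BL/6J. The Sarm1-deficient mice carry the label Sarm.KO and are called Sarm1KO here.

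Batch 1 held WT retinas only. At day 2 it had 31 retinas given the vehicle PBS, 8 given TNF, 9 given IL1A and 10 given both cytokines (IL1A+TNF). At day 14 it had 7 PBS and 6 TNF retinas, and at day 35 it had 6 PBS and 9 TNF retinas. The 7 PBS retinas of day 14 came from 6 mice, since both eyes of mouse 59710 received PBS, and every other group had 1 retina per mouse. Batch 2 was collected at day 2 and had 5 WT PBS, 6 WT IL1A+TNF, 6 Sarm1KO PBS and 6 Sarm1KO IL1A+TNF retinas. Total counts per retina ranged from 30014757 to 79064488. Levels are given in CPM, the standard unit of a count relative to its library total, with totals scaled by the trimmed mean of M values.

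As background, the retina has a pair of macroglial cell types: Müller glia, which span its whole thickness, and astrocytes, which lie along the ganglion cell axons. Both answer injury with more intermediate filament protein and with secreted and surface proteins that act on iron, proteases, matrix and lipid signals. Whole retina RNA also carries transcripts of microglia, vessels and any blood leukocytes that have entered the tissue, and several of the 10 genes are made by such cells as well.

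The libraries carried the markers of their labelled tissue. In WT PBS retinas of day 2, 8 Müller glia genes summed to a median of 3728 CPM, with Glul the most abundant. Ganglion cell genes, 4 in number, summed to a median of 167 CPM, with Slc17a6 the most abundant. Sarm1 ranged from 25.97 to 52.9 CPM in the 12 Sarm1KO retinas and from 76.2 to 138 CPM in the WT retinas.

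Of the 6 Sarm1KO IL1A+TNF retinas, 3 had the lowest ganglion cell sums of all 109 retinas. They came from mice 61765, 61924 and 61926, the females of that group, and had 57.5, 29.3 and 24.1 CPM beside at least 88.6 CPM in each other retina. Their erythrocyte sums of 76.8, 93.4 and 47.5 CPM were the highest of all retinas. Müller glia sums were 2169, 1406 and 1804 CPM there and pericyte sums 105.9, 50.1 and 51.4 CPM, and mouse 61926 had the highest lens sum, 4217 CPM. The 3 highest S1pr3 levels of all retinas lay in these 3, and the 2 highest levels of Vim, Timp1, Cd44 and Hspb1 in those of mice 61924 and 61926. They are called ganglion-poor below. What set these retinas apart, and its part in their levels, was not tested. Results of batch 2 are therefore also given without them, an alternative chosen after seeing the data that leaves out retinas with a ganglion cell sum under 0.5 times the median of 169 CPM.

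Compared per kilobase of exon, the scale on which levels of different genes can be ordered, Serpina3n was the most abundant of the 10 in WT PBS retinas of day 2, at 293 ± 182 CPM per kb (SD, n = 31). Vim and Lcn2 followed at 49.8 ± 13.2 and 49.2 ± 36.5 CPM per kb, and these neighbours differed by less than their spread. Gfap stood at 22.2 ± 6.95 CPM per kb, a gap to Lcn2 that is smaller than the spread of Lcn2. S1pr3 at 12.04 ± 2.36, Timp1 at 11.3 ± 6.66, Cd44 at 8.27 ± 3.01 and Steap4 at 7.89 ± 7.597 CPM per kb formed a middle range, in which each neighbour lay within the spread of the next. Hspb1 followed at 2.898 ± 0.786 CPM per kb, within the spread of Steap4, and Aspg was the lowest at 0.127 ± 0.0591 CPM per kb.

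**Figure D1:**
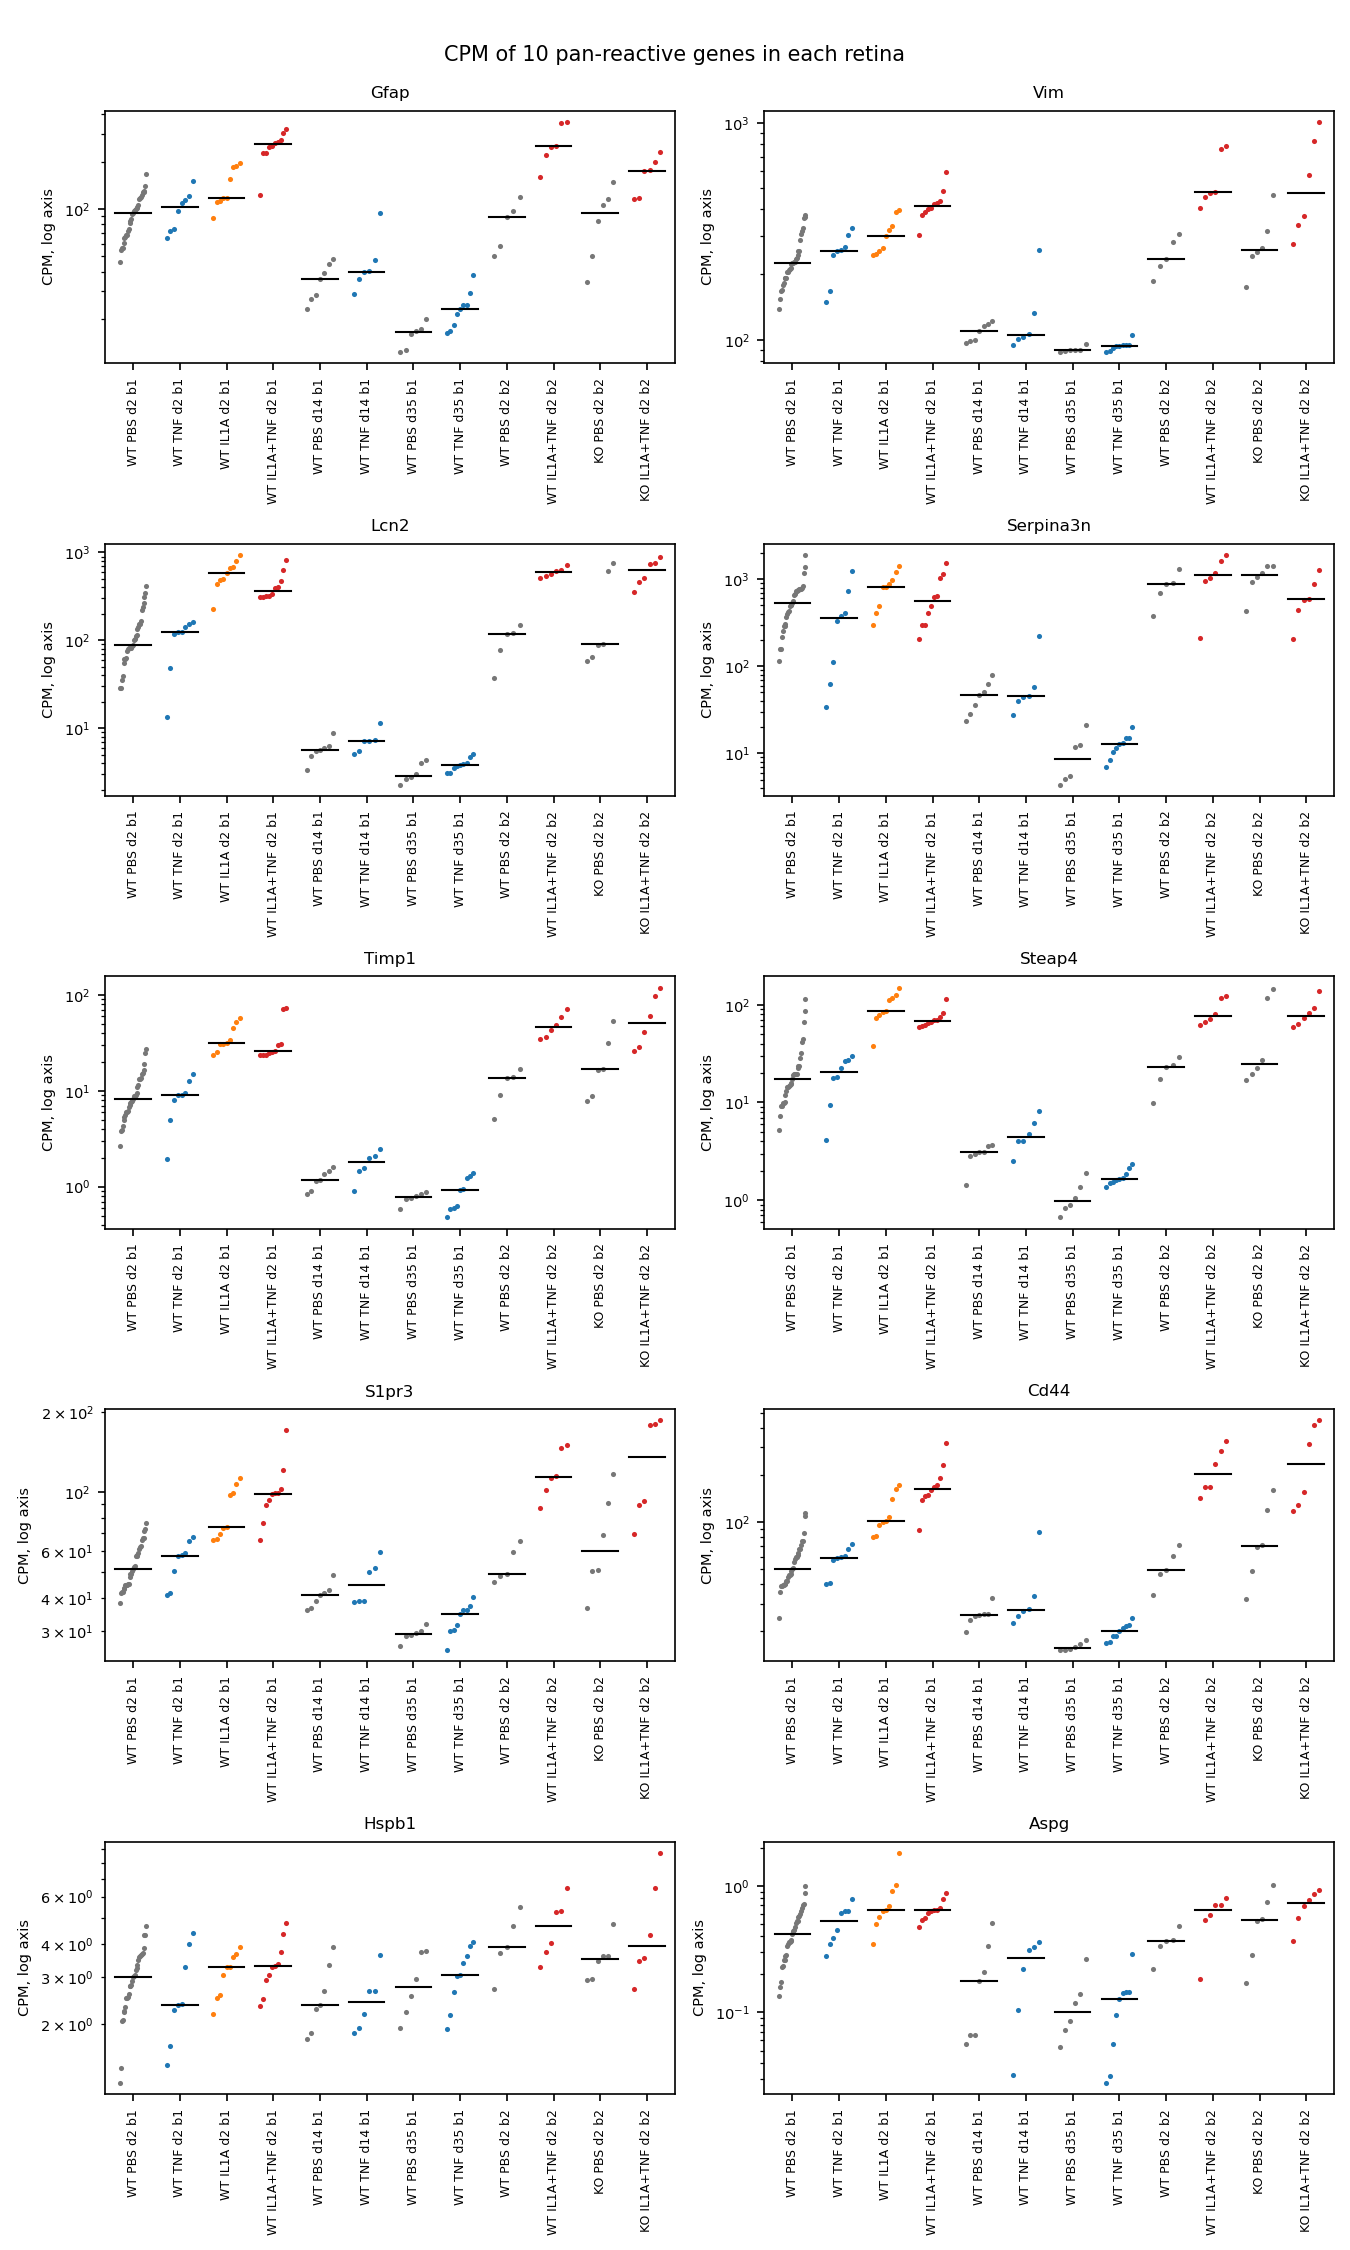
Level of each of the 10 genes in CPM on a log axis, with 1 panel per gene, 1 point per retina and a bar at each group's median. Groups are written as genotype (KO for Sarm1KO), treatment, day (d) and batch (b), and the day 35 PBS retinas lie below all day 2 PBS retinas for 8 genes, all but Hspb1 and Aspg.

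Each gene was tested with limma on the whole table, and p-values were adjusted by Benjamini-Hochberg over all genes tested in that comparison. A gene counts as higher or lower where its adjusted p is under 0.05. After IL1A+TNF at day 2, 8 of the 10 genes were higher than in WT PBS retinas, beside 24.9% of all genes tested, with Serpina3n and Hspb1 the exceptions. After IL1A the same 8 were higher, beside 12% of all genes. After TNF at day 2 limma called 0 of the 10 in either direction, beside 0.655% of all genes. At an unadjusted p under 0.05 limma gave 1 member there, Serpina3n, beside 7.66% of all genes, while edgeR and DESeq2 gave 0 and also called 0. Unlike limma, edgeR and DESeq2 were run without a term for the mouse, here and below. These comparisons share the 31 PBS retinas, so their values are not independent of each other. Modelling each mouse as a fixed block kept only mice with 1 PBS and 1 cytokine eye, 8 for IL1A+TNF and 7 for IL1A. This gave 7 members after IL1A+TNF and 6 after IL1A, beside 18.4% and 7.2% of all genes higher. Fixed-block values therefore differ from the main ones in the retinas used as well as in the block. In bulk tissue, more or fewer cells of a type and more or less RNA per cell cannot be told apart.

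The 10 genes had a median log2 change of 1.16 after IL1A+TNF, 0.74 after IL1A and -0.03 after TNF, whereas the median over all genes tested was -0.02, -0.01 and -0.0020. No member separated IL1A+TNF from PBS retinas of batch 1 without overlap, beside 2.23% of all genes.

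**Figure D2:**
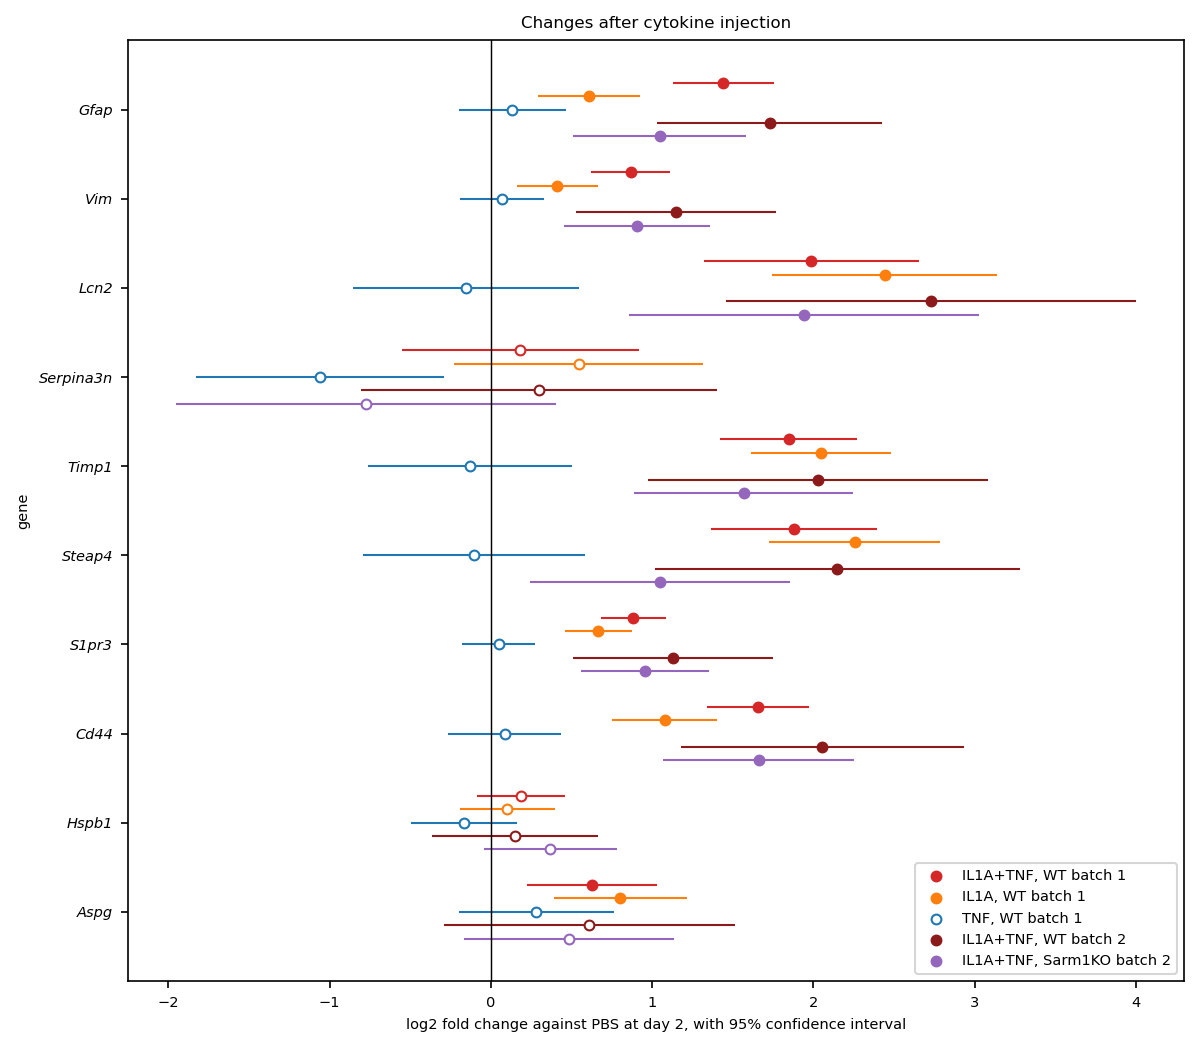
Log2 change of each gene at day 2 for IL1A+TNF, IL1A and TNF against PBS in WT retinas of batch 1, and for IL1A+TNF in WT and Sarm1KO retinas of batch 2, with bars for the 95% confidence interval. Filled points have an adjusted p under 0.05 and open points do not, and the change of Serpina3n after IL1A+TNF in batch 1, 0.18, is open.

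Gfap encodes glial fibrillary acidic protein, the intermediate filament subunit by which astrocytes and stressed Müller glia are usually recognised. In the GRCm38 (mm10) assembly it is ENSMUSG00000020932, from 102887336 to 102900912 on the minus strand of chromosome 11. Gfap in the WT PBS retinas of day 2 had lowest, median and highest levels of 45.95, 93.8 and 168 CPM. After TNF these were 65.7, 103 and 151 CPM, after IL1A 87.98, 118 and 195 CPM and after IL1A+TNF 123, 258 and 324 CPM. All IL1A+TNF retinas but replicate 9 lay above the highest PBS retina, while the TNF and IL1A retinas overlapped the PBS range.

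Gfap was 2.72-fold higher after IL1A+TNF than after PBS (95% CI 2.19 to 3.37; adjusted p = 1.15e-11; 10 of 10 retinas above the PBS mean). After IL1A alone it was 1.52-fold higher (95% CI 1.22 to 1.9; adjusted p = 0.00306; 8 of 9 retinas). With each mouse as a fixed block the IL1A change was 0.43 on the log2 scale, beside 0.61, and its adjusted p 0.209, and over 35 alternatives that p ranged from 0.00111 to 0.209. After TNF the log2 change was 0.13 (95% CI -0.20 to 0.46; adjusted p = 0.92; 5 of 8 retinas). Within mice that gave both eyes, the IL1A+TNF eye exceeded the PBS eye in 8 of 8 mice, with a median ratio of 2.605. The IL1A eye did so in 4 of 7 mice (median ratio 1.59) and the TNF eye in 6 of 8 (median ratio 1.197).

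Whether TNF adds to IL1A can be read from the retinas given both against those given IL1A, and from the interaction term, which tests whether the joint change differs from the sum of the separate log2 changes. IL1A+TNF retinas were higher than IL1A retinas for 2 of the 10 genes, Gfap and Vim, beside 5.39% of all genes, and the count ranged from 1 to 3 when each of 27 mice was left out in turn. Gfap differed by 1.78-fold (95% CI 1.36 to 2.34; adjusted p = 0.00333; 9 of 10 retinas above the IL1A mean). For the interaction limma called 0 of the 10, beside 3.6% of all genes. At an unadjusted p under 0.05 limma gave 1 member, Gfap, beside 17.6% of all genes, and edgeR and DESeq2 gave 2 each while calling 0. The Gfap interaction was 0.70 (95% CI 0.19 to 1.22; adjusted p = 0.114). Leaving out mouse 60780, which gave IL1A+TNF replicate 9, it was 0.81 with an adjusted p of 0.0363, and over 34 alternatives that p ranged from 0.0363 to 0.224. Against TNF retinas, those given both cytokines were higher for 8 of the 10 genes by limma and for 7 by edgeR and DESeq2, beside 20% of all genes. Gfap was 2.48-fold higher (adjusted p = 6.03e-07; 10 of 10 retinas above the TNF mean). Lcn2, Timp1, Steap4 and Cd44, 4 of the 10, separated these groups without overlap, beside 3.67% of all genes.

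Batch 2 repeated the IL1A+TNF treatment in WT mice beside Sarm1KO mice. In its WT retinas 7 of the 10 genes were higher after IL1A+TNF, all but Serpina3n, Hspb1 and Aspg, beside 13.3% of all genes, and the same 7 separated the 5 PBS from the 6 treated retinas without overlap, beside 11.8%. In Sarm1KO retinas the same 7 were higher, beside 21.3% of all genes, and edgeR and DESeq2 each called 5. With each mouse as a fixed block, 5 WT and 6 Sarm1KO mice were used. The counts were then 4 in WT and 5 in Sarm1KO, beside 7.86% and 11.9% of all genes higher. From batch 2 alone limma called 6 in Sarm1KO, beside 16.4%. Without the 3 ganglion-poor retinas limma called 7 in WT, beside 21.5% of all genes higher, and 0 in Sarm1KO, beside 2.42%. In Sarm1KO 5 members then had an unadjusted p under 0.05, beside 13.4% of all genes. The other tools were not run without them, and 3 treated Sarm1KO retinas, all male, then remain. Gfap in the 5 WT PBS retinas of batch 2 was 50.5, 58.3, 88.5, 97.2 and 119 CPM, and in the 6 treated retinas its lowest, median and highest levels were 160.5, 250 and 356 CPM. In Sarm1KO mice the PBS retinas had 34.1, 94.96 and 149 CPM and the IL1A+TNF retinas 116, 175 and 229 CPM. Gfap was 3.32-fold higher in WT (adjusted p = 0.00105; 6 of 6 retinas above the PBS mean) and 2.07-fold higher in Sarm1KO retinas (adjusted p = 0.000989; 6 of 6 retinas). The Sarm1KO change was 1.68-fold without the 3 retinas (adjusted p = 0.275), the upper end of a range from 9.52e-05 over 32 alternatives. Leaving out 1 mouse gave Sarm1KO log2 changes from 0.70, without mouse 61765, to 1.31, without mouse 61561, beside 1.05. The treated eye was the higher one in 5 of 5 WT and 5 of 6 Sarm1KO mice with both eyes.

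Direct tests between genotypes called none of the 10 genes. These tests and the Sarm1KO changes come from a fit of the 81 day 2 retinas of both batches with a batch term, in which the WT effect of IL1A+TNF draws on batch 1 as well. This holds for every genotype difference in effect below. The WT changes of batch 2 come from its own 23 retinas. A genotype difference in effect is therefore not the Sarm1KO change minus the WT change of batch 2, and its value from batch 2 alone is given beside it. Between PBS retinas limma called 0, beside 0.0397% of all genes, with 1 member at an unadjusted p under 0.05, beside 4.88% of all genes, and 3 by edgeR and 3 by DESeq2, which also called 0. Between IL1A+TNF retinas it called 0, beside 14.8%, with 1 at an unadjusted p under 0.05 by each of the 3 tools, beside 27.7% of all genes by limma, and 0 called by the other tools. For the difference between genotypes in the treatment effect it called 0, beside 8.75%, with 0 at an unadjusted p under 0.05 by limma, beside 22.8% of all genes, 0 by edgeR and 1 by DESeq2, and 0 called by those tools. Batch 2 alone gave 0 called in these 3 tests by limma, beside 0.0102%, 0.656% and 0% of all genes, and 0 at an unadjusted p under 0.05, beside 2.96%, 14.9% and 5.72%. Without the 3 ganglion-poor retinas limma called 0 in each, beside 0.0435%, 4.68% and 0.956% of all genes. It then gave 1, 2 and 5 members at an unadjusted p under 0.05, beside 6.47%, 21.7% and 17.4%. With all 81 retinas, the smallest adjusted p of the 3 tests belonged to Gfap, which in IL1A+TNF retinas was 0.684-fold the WT level in Sarm1KO mice (95% CI 0.486 to 0.962; adjusted p = 0.127), and 0.558-fold without the 3 retinas (adjusted p = 0.0926). Its treatment effect differed between genotypes by -0.48 on the log2 scale (95% CI -1.09 to 0.13; adjusted p = 0.361). This difference was -0.69 in batch 2 alone and -0.77 without the 3 retinas (adjusted p = 0.814 and 0.246). With 1 mouse left out it ranged from -0.82, without mouse 61765, to -0.21, without mouse 61561, and without the 14 lens-rich retinas, those with a sum of lens genes over 100 CPM, it was -0.21.

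The later days showed lower levels in injected control eyes. Of the 10 genes, 9 were lower in PBS retinas at day 14 than at day 2, beside 9.62% of all genes, and 9 at day 35, beside 16.9%, with Hspb1 the exception both times. Without overlap with the day 2 PBS retinas lay 5 members at day 14, beside 0.658% of all genes, and 8 at day 35, beside 3.19%. Uninjected retinas were not analysed here, and the day cannot be told apart from the mice collected on it. Markers of some other cells were lower with the members. Of 8 microglia genes, with Csf1r the most abundant, 7 were lower at day 14 and 8 at day 35, and their sum had medians of 90.9, 55.3 and 43.7 CPM at days 2, 14 and 35. Endothelial genes were lower in 4 and 5 of 6 (422, 421 and 342 CPM, mostly Kdr), monocyte genes in 0 and 3 of 6 (69.1, 44.4 and 13.2 CPM, with Lyz2 the most abundant) and pericyte genes in 0 and 2 of 4 (168, 149 and 130.5 CPM, mostly Rgs5). Neutrophil genes were lower in 1 of 7 at each day, with a median log2 change of -2.85 and -3.55. Their sum, with Csf3r the most abundant, had medians of 15.6, 1.49 and 1.03 CPM, and Ly6g was at 0 in the PBS retinas of both later days. Astrocyte genes were lower in 2 and 1 of 4 with 1 higher at day 35 (439.5, 411 and 386 CPM, mostly Aldoc), and Müller glia genes in 2 of 8 with 2 higher at each day (3728, 4554 and 4372 CPM, mostly Glul). Ganglion cell sums went the other way, with medians of 166.8, 184.5 and 190.8 CPM at days 2, 14 and 35. The part of these cells in the fall of the members was not tested. Gfap in PBS retinas was 23.2, 36.2 and 48.1 CPM at day 14 and 12.4, 16.4 and 19.97 CPM at day 35. Against day 2 it fell by 1.36 on the log2 scale at day 14 (adjusted p = 1.49e-07; 0 of 7 retinas above the day 2 mean) and fell by 2.52 at day 35 (adjusted p = 4.43e-13; 0 of 6 retinas).

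TNF against PBS at these days called 0 genes by limma, among the 9 members tested and in the whole table, so the background was 0% at day 14 and 0% at day 35. At an unadjusted p under 0.05 limma gave 2 members at day 14 and 5 at day 35, beside 4.65% and 4.89% of all genes, edgeR 1 and 4, and DESeq2 1 and 5, and both tools called 0 members. Gfap was 28.8, 39.95 and 95.02 CPM after TNF at day 14 and 16.2, 23.2 and 38.1 CPM at day 35. At day 35 every TNF retina was above the PBS mean (9 of 9), with a log2 change of 0.55 (95% CI 0.24 to 0.87; adjusted p = 0.889), and the groups overlapped. In mice with both eyes the TNF eye was higher in 6 of 6, with a median ratio of 1.28. Whether the TNF effect differed from that of day 2 was tested, with 0 members and 0% of all genes called at day 14 and 0 members and 0% at day 35. At an unadjusted p under 0.05 limma gave 1 and 0 members, beside 3.78% and 2.55% of all genes, edgeR 1 and 0, and DESeq2 2 and 0, none of them called.

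Vim encodes vimentin, the filament partner of glial fibrillary acidic protein in Müller glia, which endothelium and leukocytes also make. It is ENSMUSG00000026728, from 13573927 to 13582826 on the plus strand of chromosome 2. Vim in WT PBS retinas of day 2 had lowest, median and highest levels of 139, 225 and 377 CPM. After TNF these were 149, 258 and 328 CPM, after IL1A 245, 302 and 397 CPM and after IL1A+TNF 304, 415 and 592 CPM. Of the IL1A+TNF retinas 9 of 10 stood above the highest PBS retina, and the TNF retinas lay inside the PBS range.

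Vim was 1.83-fold higher after IL1A+TNF (95% CI 1.54 to 2.17; adjusted p = 2.12e-08; 10 of 10 retinas above the PBS mean), and the treated eye was higher in 8 of 8 mice. After IL1A it was 1.33-fold higher (95% CI 1.12 to 1.58; adjusted p = 0.0119; 9 of 9 retinas), and 5 of 7 IL1A eyes exceeded their PBS eyes. On the log2 scale the IL1A change was 0.41. It was 0.35 without IL1A replicate 2 (mouse 60217; adjusted p 0.0514) and 0.36 without replicate 8 (mouse 60637; 0.0526), within an adjusted p range of 0.00598 to 0.0526 over 35 alternatives. After TNF the log2 change was 0.067 (95% CI -0.19 to 0.33; adjusted p = 0.955; 6 of 8 retinas), and the TNF eye was higher in 5 of 8 mice (median ratio 1.21).

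Vim differed between IL1A+TNF and IL1A retinas by 1.37-fold (adjusted p = 0.0494; 9 of 10 retinas above the IL1A mean). It was lost in 15 of 34 alternatives, over which the log2 difference ranged from 0.40 to 0.51, beside 0.46, and the adjusted p from 0.0215 to 0.192. Of these, 14 left out 1 mouse each, 8 of IL1A+TNF and 6 of IL1A, with adjusted p-values from 0.053 to 0.103. The other was without the lens-rich retinas, at 0.192. The Vim interaction was 0.39 (95% CI -0.017 to 0.80; adjusted p = 0.311).

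Vim in batch 2 was 187, 219.9, 236, 281 and 306 CPM in the 5 WT PBS retinas and 405, 479 and 779.8 CPM in the treated ones. Sarm1KO mice had 175, 259 and 464 CPM after PBS and 275, 475 and 1008 CPM after IL1A+TNF. Groups overlapped in Sarm1KO mice only. The changes were 2.21-fold in WT (adjusted p = 0.00945; 6 of 6 retinas above the PBS mean) and 1.87-fold in Sarm1KO mice (adjusted p = 0.000773; 5 of 6 retinas). With each mouse as a fixed block the WT log2 change was 1.05, beside 1.15, and its adjusted p 0.0662, of a range of 0.000237 to 0.0662 over 21 alternatives. The Sarm1KO log2 change was then 0.89, beside 0.91, and its adjusted p 0.0609. In Sarm1KO the change was 1.19-fold without the 3 retinas (adjusted p = 0.748, of a range from 1.13e-05 over 32 alternatives). Of mice with both eyes, 5 of 5 WT and 5 of 6 Sarm1KO mice had more Vim in the treated eye. The genotype difference in effect was -0.037 (95% CI -0.55 to 0.48; adjusted p = 0.954). It was -0.25 in batch 2 alone and -0.70 without the 3 retinas (adjusted p = 0.878 and 0.161). The sign changed in 6 of 31 alternatives, among them 0.057 without the lens-rich retinas and 0.28 without mouse 61561, the highest value.

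Vim in PBS retinas of day 14 was 96.9, 110.2 and 123 CPM, all below each day 2 PBS retina, and at day 35 it was 88.2, 89.4 and 95.7 CPM. It fell by 1.07 on the log2 scale at day 14 (adjusted p = 3.51e-09) and fell by 1.35 at day 35 (adjusted p = 2.41e-12), with 0 of 7 and 0 of 6 retinas above the day 2 mean. TNF retinas had 94.3, 105 and 259 CPM at day 14 and 88, 94.02 and 105 CPM at day 35. The day 14 maximum belonged to mouse 59829, whose summed lens markers of 4071 CPM were the highest of that group, and their part in its Vim level was not tested. Adjusted p-values for TNF were 0.903 at day 14 (log2 change 0.13; 2 of 6 retinas above the PBS mean) and 0.889 at day 35 (log2 change 0.056; 7 of 9 retinas).

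Cd44 encodes the surface receptor for the matrix glycan hyaluronan, found on reactive glia and on leukocytes. It is ENSMUSG00000005087, from 102811141 to 102901665 on the minus strand of chromosome 2. Cd44 in WT PBS retinas of day 2 had lowest, median and highest levels of 24.3, 50.3 and 114 CPM. TNF retinas had 40.2, 59.1 and 71.8 CPM, IL1A retinas 80.2, 102 and 173 CPM and IL1A+TNF retinas 88.4, 163 and 319 CPM. Every IL1A+TNF retina exceeded every TNF retina, and 9 of 10 exceeded the highest PBS retina. TNF retinas lay inside the PBS range.

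Cd44 was 3.15-fold higher after IL1A+TNF (95% CI 2.53 to 3.92; adjusted p = 2.45e-13; 10 of 10 retinas above the PBS mean), the smallest adjusted p of the 10 genes in this comparison. After IL1A it was 2.11-fold higher (95% CI 1.68 to 2.65; adjusted p = 4.94e-07; 9 of 9 retinas), and after TNF its log2 change was 0.086 (95% CI -0.26 to 0.44; adjusted p = 0.956; 6 of 8 retinas). The treated eye was the higher eye in 8 of 8 IL1A+TNF mice, 5 of 7 IL1A mice and 6 of 8 TNF mice, with median ratios of 3.09, 2.76 and 1.23. Between IL1A+TNF and IL1A retinas the difference of 1.49-fold just missed the threshold (adjusted p = 0.0523; 9 of 10 retinas above the IL1A mean). It passed in 13 of 34 alternatives, over which the log2 difference ranged from 0.48 to 0.68, beside 0.58, and the adjusted p from 0.0117 to 0.243. Of these, 10 left out 1 mouse each, with adjusted p-values from 0.0117 to 0.0496. DESeq2 gave 0.038, the filter of 1 CPM 0.0434 and a fit with no sex term 0.0404. The Cd44 interaction was 0.49 (95% CI -0.04 to 1.02; adjusted p = 0.33).

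Cd44 in batch 2 was 34.1, 46.4, 49.6, 60.3 and 71.1 CPM in WT PBS retinas and 143, 203 and 328 CPM in WT treated retinas. Sarm1KO retinas had 32.2, 70.2 and 159 CPM after PBS and 117, 236 and 446 CPM after IL1A+TNF. The groups overlapped in Sarm1KO mice only. Cd44 was 4.16-fold higher in WT (adjusted p = 0.0017; 6 of 6 retinas above the PBS mean) and 3.16-fold higher in Sarm1KO mice (adjusted p = 7.41e-06; 6 of 6 retinas). Leaving out the 3 ganglion-poor retinas, the Sarm1KO change was 1.75-fold (adjusted p = 0.222, of a range from 1.2e-07 over 32 alternatives). Treated eyes were higher in 5 of 5 WT and 5 of 6 Sarm1KO mice. The effects differed between genotypes by -0.10 on the log2 scale (95% CI -0.78 to 0.57; adjusted p = 0.897). The genotype difference was -0.40 in batch 2 alone and -0.96 without the 3 retinas (adjusted p = 0.854 and 0.15). Its sign changed in 4 of 31 alternatives, with 0.21 without the lens-rich retinas, 0.14 without mouse 61564 and at most 0.28, without mouse 61561.

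Cd44 in PBS retinas was 19.8, 25.3 and 32.6 CPM at day 14 and 15.1, 15.6 and 17.7 CPM at day 35, where no PBS retina reached the day 2 PBS range. It fell by 1.05 at day 14 (adjusted p = 8.67e-05) and fell by 1.74 at day 35 (adjusted p = 2.57e-08), and 0 of 7 and 0 of 6 retinas were above the day 2 mean. TNF retinas had 22.5, 27.3 and 86.3 CPM at day 14, where mouse 59829 was again the highest, and 16.9, 19.9 and 24.4 CPM at day 35. Of the day 35 TNF retinas, 9 of 9 were above the PBS mean and 6 of 6 TNF eyes exceeded their PBS eyes. The log2 change of 0.32 (95% CI 0.17 to 0.47) had the smallest adjusted p of the members at that day, 0.712.

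Lcn2 encodes lipocalin 2, a secreted carrier that binds the iron-loaded siderophores of bacteria and is made by reactive astrocytes and in quantity by neutrophils. It is ENSMUSG00000026822, from 32384633 to 32388252 on the minus strand of chromosome 2. Lcn2 in WT PBS retinas of day 2 ranged widely, with lowest, median and highest levels of 28.6, 88.8 and 412 CPM. After TNF these were 13.5, 123 and 163 CPM, after IL1A 228, 591 and 937 CPM and after IL1A+TNF 313, 364 and 826 CPM. IL1A retinas had a higher median than IL1A+TNF retinas, and both groups stood wholly above the TNF retinas. Its 4 highest PBS levels were 412 CPM in mouse 60228, 342 in 60780, 309 in 60212 and 267 in 60641.

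Lcn2 was 3.97-fold higher after IL1A+TNF (95% CI 2.502 to 6.29; adjusted p = 9.96e-07; 10 of 10 retinas above the PBS mean). After IL1A alone it was 5.43-fold higher (95% CI 3.35 to 8.82), and 8 of 9 IL1A retinas stood above the highest PBS retina. Against IL1A alone the joint treatment gave a log2 difference of -0.45 (95% CI -1.32 to 0.41; adjusted p = 0.565; 2 of 10 retinas above the IL1A mean). After TNF its log2 change was -0.16 (95% CI -0.86 to 0.54; adjusted p = 0.961; 3 of 8 retinas). In mice with both eyes Lcn2 was higher in the IL1A+TNF eye of 8 of 8 and in the IL1A eye of 7 of 7, with median ratios of 3.33 and 7.01, and in the TNF eye of 6 of 8, with 1.303. With the mouse as a fixed block the TNF change was 0.47. The Lcn2 interaction was -0.30 (95% CI -1.41 to 0.81; adjusted p = 0.834).

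The opposite eye of each PBS retina can be set beside these levels. Of the 31 PBS retinas of day 2, at least 15 came from mice whose other eye had received IL1A, alone or with TNF. For 8 more the other eye is not among the 109, so its treatment is not known here. The same 4 retinas held the highest Lcn2 and the highest Steap4, and all 4 were among those 15. All 4 highest lay there for 4.29% of all genes tested. Lcn2 and Steap4 went together in PBS retinas (r = 0.90), so they are not separate cases. Next highest in both was mouse 60582, at 240 and 41.2 CPM, whose other eye is not known. For Gfap and S1pr3 the 4 highest included 3 such retinas (22.2% of all genes), for Serpina3n, Cd44, Hspb1 and Aspg 2 (39.9%) and for Vim and Timp1 1 (27.5%). Median Lcn2 was 127 CPM in the 8 PBS retinas opposite IL1A+TNF, 88.8 in the 7 opposite IL1A, 78.8 in the 8 opposite TNF and 119.8 in the 8 whose other eye is not among the 109. The 4 retinas highest in Lcn2 had neutrophil sums of 44.1, 51.7, 130.2 and 96.0 CPM in the order given above, beside a median of 15.6 CPM in the 31, and the 3 highest neutrophil sums of the 31 were among these 4. The part of the opposite eye and of these cells in the levels was not tested.

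Lcn2 in batch 2 was 37.7, 77.95, 117, 121 and 149 CPM in the WT PBS retinas and 507, 595 and 726 CPM in the treated ones. Sarm1KO retinas had 58.1, 89.8 and 757 CPM after PBS and 352, 625.2 and 898 CPM after IL1A+TNF. In Sarm1KO mice 2 PBS retinas, those of mice 61561 and 61564, read 614 and 757 CPM, inside the range of the treated retinas. Their summed neutrophil markers were 105 and 102 CPM, beside a median of 15.3 CPM in the 6 Sarm1KO PBS retinas, and the part of these cells was not tested. Lcn2 was 6.64-fold higher in WT (adjusted p = 0.00327; 6 of 6 retinas above the PBS mean) and 3.85-fold higher in Sarm1KO mice (adjusted p = 0.00249; 6 of 6 retinas). The Sarm1KO call was lost by edgeR (log2 change 1.15; adjusted p 0.0764), by DESeq2 (1.14; 0.0607) and without the 3 ganglion-poor retinas (1.61; 0.235), within an adjusted p range of 0.000292 to 0.235 over 32 alternatives. Lcn2 was higher in the treated eye of 5 of 5 WT and 5 of 6 Sarm1KO mice. The genotype difference in effect was -0.26 (95% CI -1.49 to 0.97; adjusted p = 0.852). It was -0.77 in batch 2 alone and -0.59 without the 3 retinas (adjusted p = 0.818 and 0.714). Over 31 alternatives the difference ran from -0.83 by DESeq2 to 0.27 without mouse 61564. It changed sign in 3 of them, with 0.26 without the lens-rich retinas.

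Lcn2 in PBS retinas was 3.34, 5.61 and 8.897 CPM at day 14 and 2.28, 2.88 and 4.33 CPM at day 35, and no PBS retina of either day reached the lowest day 2 PBS retina. It fell by 4.18 on the log2 scale at day 14 (adjusted p = 1.24e-06; 0 of 7 retinas above the day 2 mean) and fell by 5.05 at day 35 (adjusted p = 1.98e-06; 0 of 6 retinas). TNF retinas had 5.14, 7.17 and 11.3 CPM at day 14 and 3.07, 3.79 and 5.02 CPM at day 35, with the later groups overlapping PBS. The log2 change at day 35 was 0.32 (adjusted p = 0.889; 7 of 9 retinas above the PBS mean).

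Serpina3n encodes a secreted inhibitor of serine proteases. It is ENSMUSG00000021091, from 104406729 to 104414329 on the plus strand of chromosome 12. Serpina3n in WT PBS retinas of day 2 had lowest, median and highest levels of 115, 538 and 1892 CPM. TNF retinas had 34.4, 355 and 1228 CPM, IL1A retinas 299.7, 811 and 1412 CPM and IL1A+TNF retinas 207, 559 and 1544 CPM. All 4 groups overlapped, and the highest single level was in a PBS retina.

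Serpina3n had a log2 change of 0.18 after IL1A+TNF (95% CI -0.55 to 0.92; adjusted p = 0.705; 5 of 10 retinas above the PBS mean) and of 0.55 after IL1A (95% CI -0.23 to 1.32; adjusted p = 0.354; 6 of 9 retinas). After TNF it was -1.06 (95% CI -1.83 to -0.29; adjusted p = 0.326; 2 of 8 retinas). Against TNF retinas those given both cytokines were 2.37-fold higher (adjusted p = 0.0313; 6 of 10 retinas above the TNF mean). This call was lost in 9 of 34 alternatives, over which the log2 difference ranged from 0.78 to 1.56, beside 1.24, and the adjusted p from 0.00691 to 0.182. By edgeR that p was 0.182 with a log2 difference of 0.78, by DESeq2 0.144 with 0.78, and with no filter 0.0681. Without 1 mouse, for 3 TNF and 3 IL1A+TNF mice, it was 0.0574 to 0.136. Within mice, the treated eye was higher in 5 of 8 after IL1A+TNF, 4 of 7 after IL1A and 3 of 8 after TNF. The Serpina3n interaction was 0.70 (95% CI -0.53 to 1.92; adjusted p = 0.594).

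Serpina3n in batch 2 was 375, 693, 887, 893 and 1305 CPM in WT PBS retinas and 209, 1112 and 1896 CPM in WT treated retinas. Sarm1KO retinas had 433, 1121 and 1423 CPM after PBS and 203, 588 and 1262 CPM after IL1A+TNF. The treated retinas overlapped the PBS retinas in both genotypes. Log2 changes were 0.30 in WT (95% CI -0.81 to 1.40; adjusted p = 0.708; 5 of 6 retinas above the PBS mean) and -0.78 in Sarm1KO mice (95% CI -1.96 to 0.40; adjusted p = 0.3; 1 of 6 retinas). Leaving out 1 mouse gave WT changes from 0.024, without mouse 61722, to 0.76, without mouse 61720, and Sarm1KO changes from -1.04, without mouse 61765, to -0.40, without mouse 61564. The Sarm1KO change was -1.25 without the 3 ganglion-poor retinas (adjusted p = 0.459). Treated eyes were higher in 4 of 5 WT and 2 of 6 Sarm1KO mice, with median ratios of 1.45 and 0.632. The genotype difference in effect was -0.99 (95% CI -2.32 to 0.34; adjusted p = 0.392). It was -1.08 in batch 2 alone and -1.46 without the 3 retinas (adjusted p = 0.814 and 0.316), and from -1.25 (mouse 61765) to -0.61 (mouse 61564) with 1 mouse left out. Without the lens-rich retinas it was -1.24.

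Serpina3n in PBS retinas was 23.3, 46.8 and 79.7 CPM at day 14 and 4.39, 8.72 and 21.02 CPM at day 35, all under the lowest day 2 PBS retina. It fell by 3.56 on the log2 scale at day 14 (adjusted p = 4.98e-10; 0 of 7 retinas above the day 2 mean) and fell by 5.87 at day 35 (adjusted p = 1.25e-10; 0 of 6 retinas), the largest day 35 change of the 10 genes. TNF retinas had 27.4, 45.5 and 225 CPM at day 14, the maximum again in mouse 59829, and 6.91, 12.8 and 20.1 CPM at day 35. The TNF log2 change at day 14 minus that at day 2 was 1.47 (95% CI 0.22 to 2.72; adjusted p = 0.999), and Serpina3n was the 1 member with an unadjusted p under 0.05 in that test.

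Timp1 encodes a secreted inhibitor of matrix metalloproteinases. It is ENSMUSG00000001131, from 20870166 to 20874735 on the plus strand of chromosome X. Timp1 in WT PBS retinas of day 2 had lowest, median and highest levels of 2.68, 8.15 and 27.4 CPM. After TNF these were 1.92, 9.05 and 14.9 CPM, after IL1A 23.5, 31.2 and 56.6 CPM and after IL1A+TNF 23.4, 25.7 and 72.7 CPM. The lowest retinas of both IL1A groups lay above every TNF retina and below only the few highest PBS retinas.

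Timp1 was 3.595-fold higher after IL1A+TNF (95% CI 2.68 to 4.82; adjusted p = 7.52e-11; 10 of 10 retinas above the PBS mean) and 4.13-fold higher after IL1A (95% CI 3.06 to 5.58; adjusted p = 4.26e-11; 9 of 9 retinas). After TNF its log2 change was -0.13 (95% CI -0.76 to 0.50; adjusted p = 0.964; 2 of 8 retinas), and 0.43 with the mouse as a fixed block. In the mice with both eyes Timp1 was higher in 8 of 8 IL1A+TNF eyes and 7 of 7 IL1A eyes, with median ratios of 3.45 and 4.73, and in 5 of 8 TNF eyes, with 1.55. IL1A+TNF and IL1A retinas differed by -0.20 (95% CI -0.68 to 0.28; adjusted p = 0.663), and the interaction was -0.069 (95% CI -0.86 to 0.72; adjusted p = 0.954).

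Timp1 in batch 2 was 5.02, 8.96, 13.7, 14.03 and 16.7 CPM in WT PBS retinas and 34.2, 45.8 and 70.6 CPM in the treated ones. Sarm1KO retinas had 7.88, 16.8 and 53.7 CPM after PBS and 26.2, 50.6 and 118 CPM after IL1A+TNF. The WT groups did not overlap and the Sarm1KO groups did. Timp1 was 4.08-fold higher in WT (adjusted p = 0.00726; 6 of 6 retinas above the PBS mean) and 2.96-fold higher in Sarm1KO mice (adjusted p = 0.000125; 6 of 6 retinas). Mouse as a fixed block gave a WT log2 change of 1.93, beside 2.03, with an adjusted p of 0.055, of a range of 0.000101 to 0.055 over 21 alternatives. The Sarm1KO change without the 3 ganglion-poor retinas was 1.83-fold (adjusted p = 0.296, of a range from 3.21e-06 over 32 alternatives). The treated eye exceeded the PBS eye in 5 of 5 WT and 5 of 6 Sarm1KO mice. Between genotypes the effects differed by -0.33 (95% CI -1.14 to 0.47; adjusted p = 0.67). The difference was -0.43 in batch 2 alone and -1.04 without the 3 retinas (adjusted p = 0.864 and 0.206). It changed sign in 1 of 31 alternatives, to 0.11 without mouse 61564, and was -0.067 without the lens-rich retinas.

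Timp1 in PBS retinas was 0.836, 1.18 and 1.6 CPM at day 14 and 0.5895, 0.785 and 0.872 CPM at day 35, below each day 2 PBS retina. It fell by 2.84 on the log2 scale at day 14 (adjusted p = 0.000296; 0 of 7 retinas above the day 2 mean) and fell by 3.46 at day 35 (adjusted p = 0.000132; 0 of 6 retinas). After TNF the levels were 0.899, 1.79 and 2.49 CPM and 0.4799, 0.923 and 1.38 CPM, in ranges that overlapped PBS, and the day 14 log2 change was 0.45 (adjusted p = 0.888; 5 of 6 retinas above the PBS mean).

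Steap4 encodes a membrane metalloreductase that reduces iron and copper for uptake. It is ENSMUSG00000012428, from 7960457 to 7982213 on the plus strand of chromosome 5. Steap4 in WT PBS retinas of day 2 had lowest, median and highest levels of 5.28, 17.4 and 115 CPM. TNF retinas had 4.13, 20.4 and 30.1 CPM, IL1A retinas 38.2, 85.4 and 149 CPM and IL1A+TNF retinas 58.7, 67.8 and 114 CPM. Retinas given IL1A, alone or with TNF, all exceeded the TNF retinas.

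Steap4 was 3.69-fold higher after IL1A+TNF (95% CI 2.58 to 5.27; adjusted p = 9.26e-09; 10 of 10 retinas above the PBS mean) and 4.78-fold higher after IL1A (95% CI 3.31 to 6.899; adjusted p = 8.13e-10; 9 of 9 retinas). After TNF its log2 change was -0.10 (95% CI -0.79 to 0.58; adjusted p = 0.973; 3 of 8 retinas), and 0.60 with the mouse as a fixed block. The IL1A+TNF eye was higher in 7 of 8 mice and the IL1A eye in 6 of 7. The TNF eye was higher in 6 of 8, with a median ratio of 1.23. IL1A+TNF and IL1A retinas differed by -0.37 (95% CI -0.99 to 0.24; adjusted p = 0.494), and the interaction was -0.27 (95% CI -1.19 to 0.65; adjusted p = 0.818).

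Steap4 in batch 2 was 9.89, 17.2, 23.03, 24.2 and 28.9 CPM in WT PBS retinas and 61.7, 76.2 and 124 CPM in WT treated retinas. Sarm1KO retinas had 16.9, 24.8 and 145 CPM after PBS and 58.95, 76.98 and 137 CPM after IL1A+TNF. The highest Sarm1KO PBS levels, 145 and 116 CPM, came from the same mice 61561 and 61564 that were high in Lcn2. Steap4 was 4.43-fold higher in WT (adjusted p = 0.00787; 6 of 6 retinas above the PBS mean) and 2.07-fold higher in Sarm1KO mice (adjusted p = 0.0297; 6 of 6 retinas). The Sarm1KO call was lost in 10 of 32 alternatives, with log2 changes from 0.57 to 1.48, beside 1.05, and adjusted p-values from 0.00731 to 0.381 over all 32. By edgeR the adjusted p was 0.381 with a log2 change of 0.57 and by DESeq2 0.38 with 0.57. That p was 0.0649 with each mouse as a fixed block (log2 change 0.98), 0.0554 with no filter and 0.0923 with batch 2 alone. Leaving out 1 of 4 Sarm1KO mice gave 0.0804 to 0.141, and leaving out the 3 ganglion-poor retinas gave 0.355 with a log2 change of 1.03. Steap4 was higher in the treated eye of 5 of 5 WT and 4 of 6 Sarm1KO mice. Its genotype difference in effect was -0.91 (95% CI -1.85 to 0.019; adjusted p = 0.231). The value was -1.15 in batch 2 alone and -0.93 without the 3 retinas (adjusted p = 0.814 and 0.388), and from -1.08 (mouse 61924) to -0.59 (mouse 61564) with 1 mouse left out. Without lens-rich retinas it was -0.42. Between PBS retinas Sarm1KO differed from WT by 0.92 (95% CI 0.14 to 1.69; adjusted p = 0.936).

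Steap4 in PBS retinas was 1.44, 3.07 and 3.68 CPM at day 14 and 0.667, 0.972 and 1.91 CPM at day 35, again below the day 2 PBS range. It fell by 2.702 on the log2 scale at day 14 (adjusted p = 0.000815; 0 of 7 retinas above the day 2 mean) and fell by 4.17 at day 35 (adjusted p = 0.000275; 0 of 6 retinas). TNF retinas had 2.54, 4.396 and 8.24 CPM at day 14 and 1.37, 1.63 and 2.37 CPM at day 35. The log2 change was 0.60 at day 14 (adjusted p = 0.888; 5 of 6 retinas above the PBS mean) and 0.73 at day 35 (adjusted p = 0.889; 9 of 9 retinas). TNF eyes exceeded their PBS eyes in 4 of 4 mice at day 14 and 5 of 6 at day 35.

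S1pr3 encodes a G protein-coupled receptor for the lipid signal sphingosine 1-phosphate. It is ENSMUSG00000067586, from 51408639 to 51422797 on the plus strand of chromosome 13. S1pr3 in WT PBS retinas of day 2 had lowest, median and highest levels of 38.3, 51.2 and 76.3 CPM. TNF retinas had 40.9, 57.7 and 67.8 CPM, IL1A retinas 66.05, 74.2 and 113 CPM and IL1A+TNF retinas 65.9, 98.6 and 172 CPM. Relative to the mean, its PBS retinas were the least spread of the 10 genes. The lowest IL1A and IL1A+TNF retinas reached down into the PBS range, and 9 of 10 IL1A+TNF retinas lay above it.

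S1pr3 was 1.85-fold higher after IL1A+TNF (95% CI 1.605 to 2.12; adjusted p = 6.81e-11; 10 of 10 retinas above the PBS mean) and 1.59-fold higher after IL1A (95% CI 1.37 to 1.84; adjusted p = 1.24e-06; 9 of 9 retinas). After TNF its log2 change was 0.048 (95% CI -0.18 to 0.27; adjusted p = 0.963; 5 of 8 retinas). Within mice the IL1A+TNF eye was higher in 8 of 8, although in 1 mouse the ratio was as low as 1.01, and the IL1A eye was higher in 6 of 7 and the TNF eye in 5 of 8 (median ratio 1.12). IL1A+TNF and IL1A retinas differed by 0.22 (95% CI -0.039 to 0.47; adjusted p = 0.301), and the interaction was 0.17 (95% CI -0.17 to 0.51; adjusted p = 0.653).

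S1pr3 in batch 2 was 45.8, 48.3, 48.98, 59.5 and 65.5 CPM in WT PBS retinas and 87.2, 114 and 150.5 CPM in the treated ones. Sarm1KO retinas had 36.5, 59.9 and 117 CPM after PBS and 69.2, 136 and 186 CPM after IL1A+TNF, in overlapping ranges. S1pr3 was 2.19-fold higher in WT (adjusted p = 0.0105; 6 of 6 retinas above the PBS mean) and 1.94-fold higher in Sarm1KO mice (adjusted p = 7.34e-05; 6 of 6 retinas). Fixing the mouse as a block gave a WT log2 change of 1.08, beside 1.13, with an adjusted p of 0.0612, of a range of 0.000299 to 0.0612 over 21 alternatives. Without the 3 ganglion-poor retinas, which held its highest levels, the Sarm1KO change was 1.301-fold (adjusted p = 0.476, of a range from 1.47e-06 over 32 alternatives). In mice with both eyes S1pr3 was higher in 5 of 5 treated WT and 4 of 6 treated Sarm1KO eyes. The genotype difference in effect was -0.001 (95% CI -0.46 to 0.45; adjusted p = 0.998). That difference was -0.18 in batch 2 alone and -0.58 without the 3 retinas (adjusted p = 0.911 and 0.196). In 8 of 31 alternatives its sign changed, with 0.31 without the lens-rich retinas, the highest value, and 0.25 without mouse 61561.

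S1pr3 in PBS retinas was 36.1, 41.1 and 48.8 CPM at day 14, overlapping the day 2 PBS range, and 26.4, 29.2 and 31.8 CPM at day 35, below it. It fell by 0.37 on the log2 scale at day 14 (adjusted p = 0.0177; 0 of 7 retinas above the day 2 mean) and fell by 0.86 at day 35 (adjusted p = 1.59e-07; 0 of 6 retinas). TNF retinas had 38.7, 44.5 and 59.5 CPM and 25.4, 34.8 and 40.4 CPM, overlapping PBS at both days.

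Hspb1 encodes a small heat shock protein, a chaperone that protects the cytoskeleton under stress. It is ENSMUSG00000004951, from 135887919 to 135889563 on the plus strand of chromosome 5. Hspb1 in WT PBS retinas of day 2 had lowest, median and highest levels of 1.21, 2.999 and 4.67 CPM, from 36 to 193 counts. TNF retinas had 1.42, 2.37 and 4.39 CPM, IL1A retinas 2.19, 3.28 and 3.89 CPM and IL1A+TNF retinas 2.35, 3.29 and 4.799 CPM.

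Hspb1 was called in none of the comparisons by limma, edgeR or DESeq2. Its log2 change was 0.19 after IL1A+TNF (95% CI -0.085 to 0.46; adjusted p = 0.258; 7 of 10 retinas above the PBS mean), 0.10 after IL1A (95% CI -0.19 to 0.39; adjusted p = 0.703; 6 of 9 retinas) and -0.17 after TNF (95% CI -0.50 to 0.16; adjusted p = 0.89; 3 of 8 retinas), and 4 of 8 TNF eyes exceeded their PBS eyes. Hspb1 in batch 2 was 2.71, 3.68, 3.89, 4.66 and 5.47 CPM in WT PBS retinas and 3.26, 4.65 and 6.44 CPM after IL1A+TNF, with Sarm1KO retinas at 2.94, 3.52 and 4.75 CPM and 2.71, 3.93 and 8.71 CPM. All 4 groups overlapped, and the log2 change was 0.15 in WT (adjusted p = 0.683; 3 of 6 retinas) and 0.37 in Sarm1KO mice (adjusted p = 0.143; 3 of 6 retinas). The Sarm1KO change was 0.05 without the 3 ganglion-poor retinas (adjusted p = 0.96). The genotype difference in effect was 0.19 (95% CI -0.29 to 0.68; adjusted p = 0.684). It was 0.22 in batch 2 alone (adjusted p = 0.869), and from -0.13 to 0.29 over 31 alternatives. In PBS retinas the Hspb1 level was 1.77, 2.37 and 3.901 CPM at day 14 and 1.95, 2.75 and 3.75 CPM at day 35. The changes from day 2 were -0.20 (95% CI -0.56 to 0.16; adjusted p = 0.486) and -0.058 (95% CI -0.42 to 0.30; adjusted p = 0.852). TNF retinas had 1.86, 2.42 and 3.64 CPM at day 14 and 1.92, 3.06 and 4.07 CPM at day 35.

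Aspg encodes an asparaginase, an enzyme that splits asparagine. It is ENSMUSG00000037686, from 112106679 to 112127559 on the plus strand of chromosome 12. Aspg in WT PBS retinas of day 2 had lowest, median and highest levels of 0.134, 0.412 and 0.993 CPM, from 5 to 41 counts, so each value carries a large counting error. TNF retinas had 0.279, 0.526 and 0.7796 CPM, IL1A retinas 0.347, 0.645 and 1.81 CPM and IL1A+TNF retinas 0.469, 0.638 and 0.877 CPM. All 4 groups overlapped.

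Aspg was 1.54-fold higher after IL1A+TNF (95% CI 1.17 to 2.04; adjusted p = 0.00765; 10 of 10 retinas above the PBS mean) and 1.75-fold higher after IL1A (95% CI 1.31 to 2.33; adjusted p = 0.00273; 8 of 9 retinas). The log2 changes were 0.63 and 0.80. A fixed block for each mouse gave 0.47 and 0.86, with adjusted p-values of 0.222 and 0.0684, the upper ends of ranges from 0.00452 and 0.000387 over 34 alternatives each. A filter of 1 CPM removed the gene. After TNF its log2 change was 0.28 (95% CI -0.20 to 0.76; adjusted p = 0.866; 5 of 8 retinas), and the TNF eye was higher in 5 of 8 mice. Aspg in batch 2 was 0.221, 0.336, 0.367, 0.375 and 0.484 CPM in WT PBS retinas and 0.182, 0.646 and 0.796 CPM after IL1A+TNF, and Sarm1KO retinas had 0.1702, 0.536 and 1.02 CPM and 0.367, 0.729 and 0.927 CPM. The log2 change was 0.61 in WT (95% CI -0.29 to 1.51; adjusted p = 0.327; 5 of 6 retinas) and 0.48 in Sarm1KO mice (95% CI -0.17 to 1.13; adjusted p = 0.237; 5 of 6 retinas). Leaving out the 3 ganglion-poor retinas, the Sarm1KO change was 0.098 (adjusted p = 0.956). The genotype difference in effect was -0.14 (95% CI -0.89 to 0.61; adjusted p = 0.869). It was -0.12 in batch 2 alone (adjusted p = 0.957), and from -0.52 to 0.059 over 30 alternatives. In PBS retinas Aspg was 0.0563, 0.176 and 0.504 CPM at day 14 and 0.0538, 0.101 and 0.264 CPM at day 35. It fell by 1.20 on the log2 scale (adjusted p = 0.0167; 1 of 7 retinas above the day 2 mean) and fell by 1.78 (adjusted p = 0.000784; 0 of 6 retinas), in ranges that overlapped the day 2 PBS range. TNF retinas had 0.0321, 0.267 and 0.358 CPM at day 14 and 0.0278, 0.127 and 0.287 CPM at day 35, and its counts were too low for the TNF test at both days.

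Every group held both sexes, and between female and male WT retinas of day 2 limma called 0 of the 10 genes, beside 0.363% of all genes. At an unadjusted p under 0.05 limma gave 0, beside 9.97% of all genes, and edgeR and DESeq2 gave 1 each and called 0.

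The 10 genes also varied among retinas that received only PBS. Over the 31 WT PBS retinas of day 2, each from a different mouse, log2 levels were correlated for all 45 pairs of members. Pearson's r was above 0 in 44 pairs, with a median of 0.50, and 27 pairs had an adjusted permutation p under 0.05. Spearman's rank coefficient gave 26 such pairs, and 27 had one by r after sex was removed. Over all pairs of the 19548 genes tested in day 2 retinas, r was above 0 in 49.1%, with a median of -0.0067. It was at least 0.402, the smallest r of the 27 pairs, in 8.25% and at least that far from 0 in 15.6%. The pairs share retinas and genes, so these shares are a description. Lcn2 and Steap4 were the closest pair, with r = 0.90 and a Spearman coefficient of 0.88 (permutation p of 1e-05 each, the smallest that the permutations can give, adjusted p of 7.5e-05 and 6.43e-05) and r = 0.87 without the 2 farthest retinas. Gfap and Cd44 followed with r = 0.76 and a Spearman coefficient of 0.72, and r = 0.65 without the 2 farthest. S1pr3 and Aspg were the pair under 0, with r = -0.02. Hspb1 passed only with Vim (r = 0.40; adjusted p = 0.0412), and not by rank (Spearman coefficient 0.34; adjusted p = 0.0853).

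**Figure D3:**
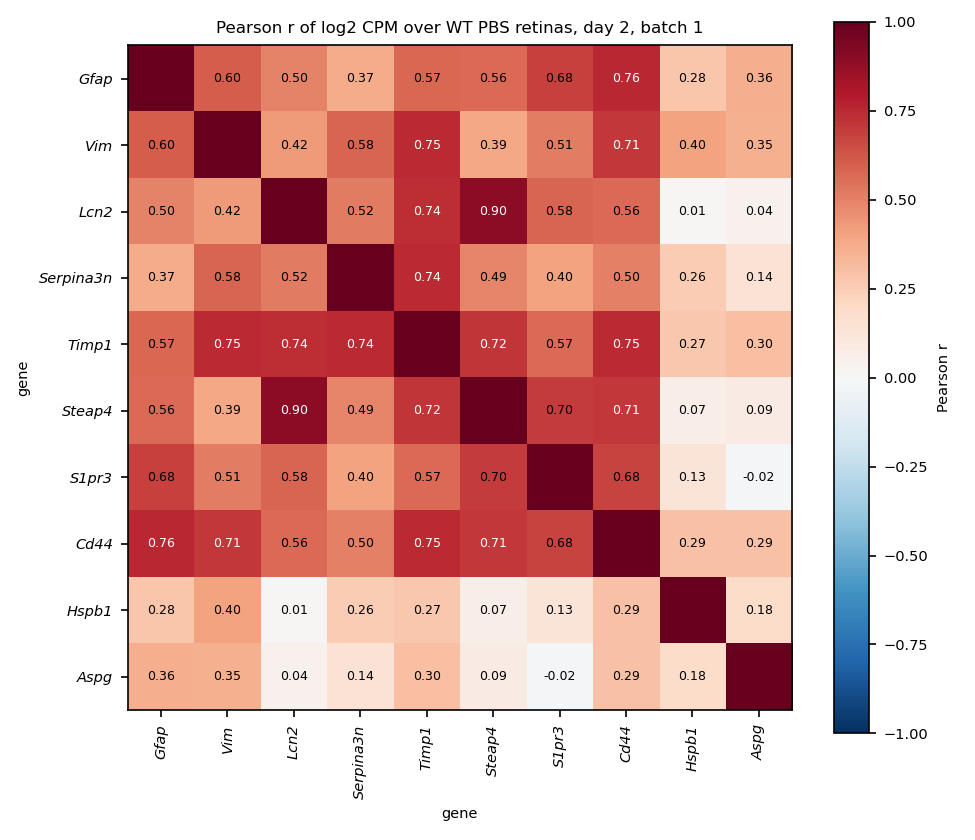
Pearson's r of log2 CPM for each pair of the 10 genes over the 31 WT PBS retinas of day 2, as a coloured grid. Lcn2 with Steap4 holds the highest value, 0.90, and S1pr3 with Aspg the lowest, -0.02.

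Across the 12 groups, the genes whose mean log2 level followed each member most closely were sought among 14961 genes. The groups share PBS controls and batches, so r is a description. Timp1 was first for Lcn2 (r = 0.995) and for Steap4 (r = 0.992), and Tgm2 was first for Timp1 (r = 0.996), ahead of Lcn2. S1pr3 and Cd44 were first for each other (r = 0.996), then for Cd44 Itga5 (r = 0.995) and Bmp1 (r = 0.994) and for S1pr3 Micall2 and Swap70. Gfap was followed by H2-Q4 (r = 0.992), Plcb3 and Fgf2, and Vim by Pdpn (r = 0.997), Pf4 and Slc39a1. Serpina3n was followed by Ifitm3 (r = 0.993), Tmem176a and A2m, and Hspb1 by Pole2 (r = 0.971), Dlst and Tmem39b. Gatm and Cd244a came after Timp1 for Lcn2, S100a6 and Lcn2 after it for Steap4, and Slc25a37 after Lcn2 for Timp1. Aspg was under 1 CPM and was not ranked.

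Genes known to act with the members were read from lists, and those named as risen or fallen had an adjusted p under 0.05. Their counts stand beside IL1A+TNF shares of 24.9% higher and 25.5% lower in the whole table. Of the 3 other pan-reactive genes, Cp, the ferroxidase ceruloplasmin, rose after IL1A+TNF by 1.21 on the log2 scale (adjusted p = 4.19e-12). Osmr, the oncostatin M receptor, rose by 0.75 (adjusted p = 3.25e-07), and Cxcl10, a chemokine of interferon responses, had -0.078 (adjusted p = 0.877). Of 8 other intermediate filament genes, 3 were higher and 5 lower, with a median of -0.17. Among 13 tested genes of gp130 cytokine and STAT3 signalling, which drives Gfap transcription in astrocytes, 7 were higher and 2 lower, with a median of 0.54.

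Of 37 tested partners and paralogs of the members, 19 were higher and 4 lower after IL1A+TNF, with a median of 0.29, beside -0.02 over all genes. The genes named next were picked from those that rose, so they do not stand for the list. Mmp9, a protease that Timp1 inhibits, rose by 2.30 on the log2 scale. Spp1, which encodes osteopontin, a ligand of Cd44, rose by 2.04. Serpina3f, a paralog of Serpina3n, rose by 5.02 while Serpina3n was not called. The A1 and A2 lists of astrocyte states had 10 of 11 and 12 of 12 tested genes higher, with medians of 1.48 and 0.92. After IL1A 6 and 8 of them were higher, beside 12% of all genes, and after TNF 0 and 0, beside 0.614%.

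Markers of other cells moved with these genes after IL1A and IL1A+TNF, again beside 24.9% of all genes higher and 25.5% lower after IL1A+TNF. Of 7 tested neutrophil genes 6 were higher after IL1A+TNF. Their summed level, with Csf3r the most abundant, had medians of 15.6 CPM after PBS, 20.6 after TNF, 154 after IL1A and 182 after IL1A+TNF. Monocyte genes were higher in 5 of 6, with summed medians of 69.1, 204, 220.4 and 376 CPM for the same 4 treatments, with Lyz2 the most abundant. Of 8 microglia genes 4 were higher and 3 lower, and their sum, with Csf1r the most abundant, had medians of 90.9 CPM after PBS, 127 after TNF, 149 after IL1A and 148 after IL1A+TNF. Endothelial genes were higher in 5 of 6 and lower in 1, with Kdr the most abundant and medians of 422 and 553 CPM. After IL1A higher were 6 of 7 neutrophil, 4 of 6 monocyte, 5 of 8 microglia and 5 of 6 endothelial genes, beside 12% of all genes. After TNF, where no member was called, 2 of 8 microglia genes were higher, beside 0.614% of all genes, and none of the neutrophil, monocyte and endothelial genes was called. Neutrophils, monocytes and endothelium are known to make Lcn2, Timp1, Cd44 or Vim, and their part in the rise of the members was not tested.

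Macroglial markers did not move in a single direction after IL1A+TNF. Of 8 Müller glia genes 3 were higher and 2 lower, with a summed median of 2840 CPM beside 3728 after PBS, and Glul the most abundant. Of 4 astrocyte genes 2 were higher and 2 lower, with 319 beside 439.5 CPM, mostly Aldoc. Ganglion cell genes were lower in 3 of 4, with 140.1 beside 167 CPM. The part of these shifts in the values of the members was not tested. Of 4 pericyte genes 1 was higher, with 177 beside 168 CPM, mostly Rgs5.

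Tissue taken along with the retina also varied. Pigment epithelium genes were lower in 3 of 4 after IL1A+TNF, with medians of 13.3 beside 36.2 CPM, mostly Ttr, and after TNF in 1 of 4, with 15.6 CPM. None of 5 erythrocyte genes was called, with 18.1 beside 17.9 CPM, mostly Hbb-bs. None of 5 lens genes was called, but 14 of the 109 retinas had a lens sum, mostly Cryaa, over 100 CPM, against a median of 4.60 in the others. Without those 14, an alternative chosen after seeing the data, 8 members were still called after IL1A+TNF and 8 after IL1A.

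The same lists were read in batch 2, where treated WT retinas had 13.3% of the whole table higher and 7.55% lower than PBS, and treated Sarm1KO retinas 21.3% and 22.2%. The WT counts come from the 23 retinas of this batch and the Sarm1KO counts from the fit of 81, and no list was tested between genotypes. Neutrophil genes were higher in 4 of 6 in WT, with summed medians of 8.16 CPM after PBS and 297 after IL1A+TNF, and in 6 of 7 in Sarm1KO mice, with 15.3 and 274 CPM. Monocyte genes were higher in 3 of 6 in each genotype, with 85.2 and 487 CPM in WT and 81.4 and 282 in Sarm1KO. Of 8 microglia genes 3 were higher and 1 lower in WT (98.5 and 178 CPM), and 2 higher and 1 lower in Sarm1KO (91.7 and 127). Endothelial genes were higher in 3 of 6 (422 and 598 CPM) and in 2 of 6 (419 and 486). Of 8 Müller glia genes 2 were higher and 2 lower in WT (3852 and 2699 CPM), and 1 higher and 5 lower in Sarm1KO (3828 and 2457). Of 4 astrocyte genes 2 were higher and 1 lower in WT (474 and 298 CPM), and 2 higher and 2 lower in Sarm1KO (469.6 and 278). Lower were 0 of 4 pericyte genes in WT (188 and 163 CPM) and 3 in Sarm1KO (186 and 134), and 0 of 4 ganglion cell genes in WT (171 and 144 CPM) and 4 in Sarm1KO (174 and 101). Of 5 erythrocyte genes 0 were called in WT (25.1 and 25.6 CPM) and 3 were higher in Sarm1KO (23.6 and 35.1). No pigment epithelium or lens gene was called, the most abundant gene of each list was the one named above, and no marker of these lists was at 0 in a whole group.

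Leaving out the 3 ganglion-poor retinas changed these counts in both genotypes. The remaining treated Sarm1KO retinas, of mice 61561, 61564 and 62221, had ganglion cell sums of 184.7, 161.1 and 144.6 CPM, pericyte sums of 175.7, 162.5 and 192.7 CPM and erythrocyte sums of 19.87, 19.63 and 22.68 CPM. Of the pericyte, ganglion cell, erythrocyte and astrocyte genes none was then called in Sarm1KO, beside 2.42% of all genes higher and 0.469% lower. Called higher there were 4 of 7 neutrophil genes, 3 of 6 monocyte, 2 of 8 microglia and 1 of 6 endothelial genes, with treated medians of 130.3, 271.2, 127.3 and 489.8 CPM, and lower were 2 of 8 Müller glia genes (3016 CPM) and 1 of 8 microglia genes. In WT, whose retinas stayed the same, 5 of 6 neutrophil, 3 of 6 monocyte, 5 of 8 microglia, 5 of 6 endothelial, 3 of 8 Müller glia and 2 of 4 astrocyte genes were higher, beside 21.5% of all genes. Lower were 4 of 4 ganglion cell, 3 of 8 Müller glia, 1 of 4 pericyte, 1 of 4 astrocyte, 1 of 4 pigment epithelium, 1 of 8 microglia and 1 of 6 endothelial genes, also beside 21.5%. The part of these cells in the batch 2 changes of the members was not tested.

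**Figure D4:**
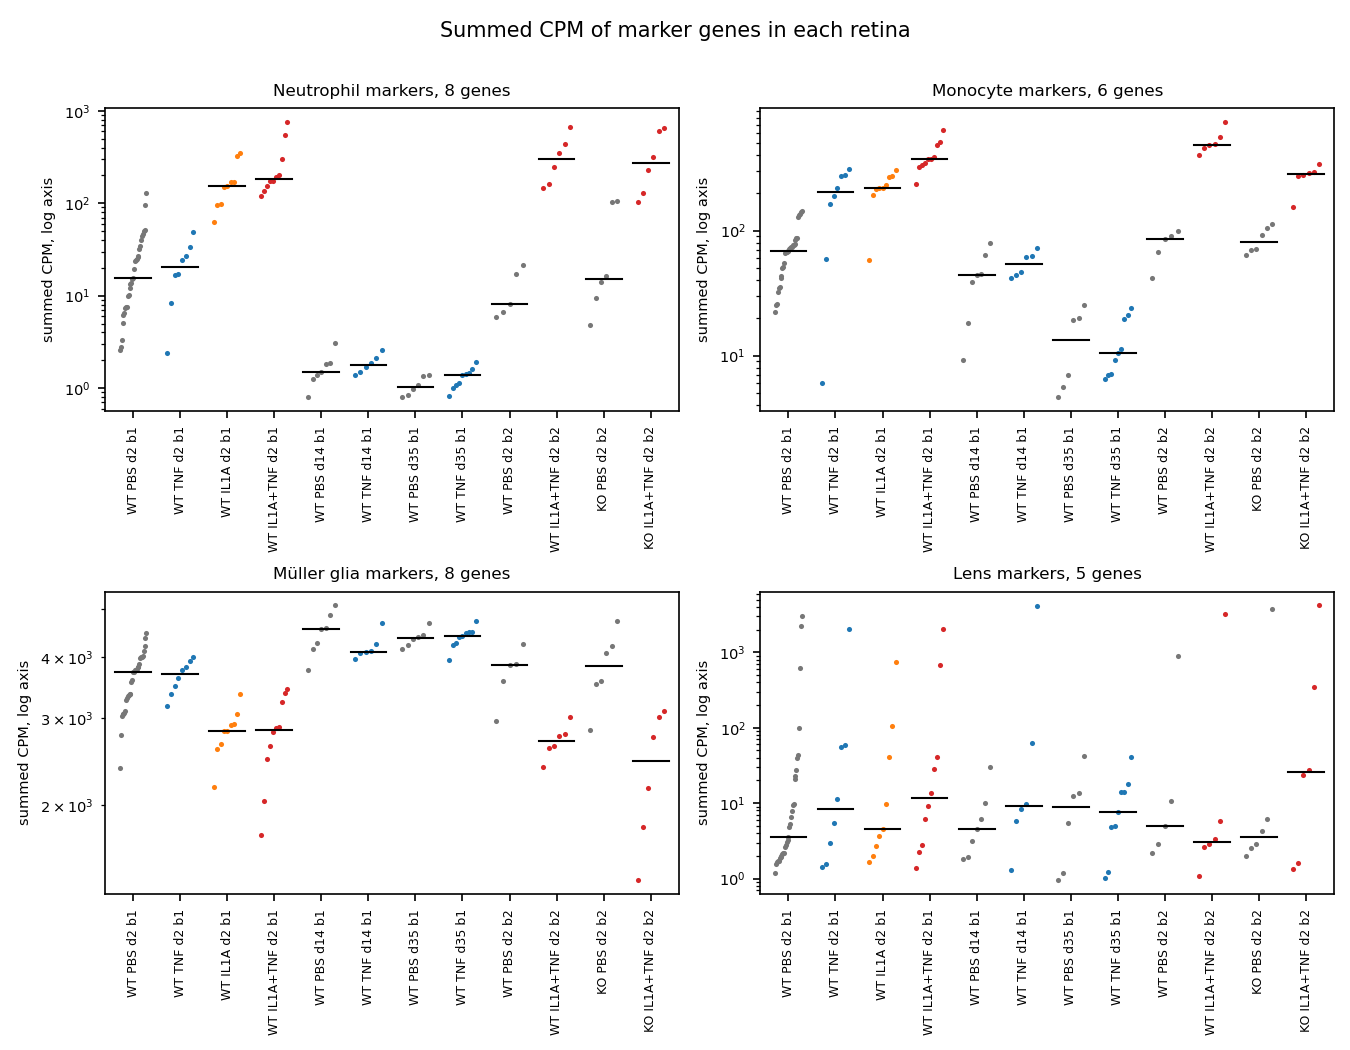
Summed CPM of marker genes of neutrophils, monocytes, Müller glia and lens on log axes, with 1 point per retina, a bar at each group's median and KO for Sarm1KO. Neutrophil sums lie higher in the IL1A and IL1A+TNF groups, with medians of 154 and 182 CPM, than in the TNF group, 20.6 CPM.

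The rule that chose the members used no sequence, so their promoters were searched for motifs of the factors best known in these responses. RefSeq promoters on GRCm38.p6 matched all 10 members, and the 250 bases before the RefSeq start were read on both strands. The letters TTCNNNGAA of STAT factors occurred in Steap4 and in 7.02% of all 32851 promoters, and TTGCNNAA of C/EBP factors in Lcn2 and Steap4 and in 9.56%. GAANNTTC, a heat shock element form, occurred in Hspb1 at 2 places and in 6.69%, and TGANTCA of AP-1 in no member and in 6.75%. The NF-kB motif was in Vim and Steap4 and in 3.9%. The letters searched for it are not given here, so its capitals below show only the matched stretches. The printed promoters belong to the 4 members that held a match and are shown so that the matched letters, in capitals, can be read in place. A match describes letters only. The windows are chr5:7960222-7960471 on the plus strand for Steap4, chr2:32387740-32387989 on the minus strand for Lcn2, chr2:13574061-13574310 on the plus strand for Vim and chr5:135887669-135887918 on the plus strand for Hspb1. RefSeq and Ensembl place some starts apart. The windows of Vim and Lcn2, like that of Gfap, lie inside the Ensembl bounds given above, that of Steap4 reaches into them, and that of Hspb1 ends where they begin.
Steap4: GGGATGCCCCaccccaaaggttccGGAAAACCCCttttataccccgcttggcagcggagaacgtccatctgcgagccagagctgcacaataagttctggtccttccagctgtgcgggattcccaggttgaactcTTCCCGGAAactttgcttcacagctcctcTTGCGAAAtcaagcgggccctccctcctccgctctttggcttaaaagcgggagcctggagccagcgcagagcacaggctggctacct
Lcn2: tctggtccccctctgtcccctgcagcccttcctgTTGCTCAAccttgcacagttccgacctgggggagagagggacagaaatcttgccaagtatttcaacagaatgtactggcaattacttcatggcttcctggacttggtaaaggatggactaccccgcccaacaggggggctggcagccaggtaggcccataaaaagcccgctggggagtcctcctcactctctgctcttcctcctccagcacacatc
Vim: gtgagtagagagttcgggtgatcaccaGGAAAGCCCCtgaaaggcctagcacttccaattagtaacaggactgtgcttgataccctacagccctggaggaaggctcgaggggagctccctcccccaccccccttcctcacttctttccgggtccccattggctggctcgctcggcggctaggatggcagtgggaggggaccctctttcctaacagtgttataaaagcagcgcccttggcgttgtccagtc
Hspb1: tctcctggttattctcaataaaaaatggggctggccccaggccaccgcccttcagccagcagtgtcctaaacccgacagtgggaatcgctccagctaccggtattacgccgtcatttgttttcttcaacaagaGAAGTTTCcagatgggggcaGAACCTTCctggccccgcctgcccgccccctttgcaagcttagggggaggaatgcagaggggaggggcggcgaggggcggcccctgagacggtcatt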

How the data were processed

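Polyadenylated RNA of 109 mouse retinas was measured. The values are read counts per gene that the authors deposited, made with STAR 2.7.9a and featureCounts of Subread 2.0.1 on mm10. The annotation release and the strand setting are not given in the sources used here, and the extract protocol names a day 2 collection for all retinas while the time labels give days 2, 14 and 35, which were used.

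Total counts per retina of 30014757 to 79064488 set the precision, which is lowest for Aspg. The markers of 1 cell type are not reported here. Members and lists were chosen with earlier results of these data known. Genes passed edgeR's filterByExpr (minimum count 10, minimum total 15), and 2 rounds of voom and duplicateCorrelation with the mouse as block preceded limma's moderated test, with sex as a term, and confidence intervals use its degrees of freedom. Adjusted p-values cover all genes tested, with a threshold of 0.05. All 10 members, the 3 other pan-reactive genes and 3 nearest genes per member could be named. So could up to 4 genes of each list with the smallest adjusted p after IL1A+TNF at day 2, and known partners and paralogs. Levels used a prior count of 2 where logged. Over 16421 genes, residuals of 45 same-mouse pairs had a median r of 0.13 (-0.33 to 0.421; 24 above 0.1) against -0.0126 for different mice.

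Timp1 lies within Syn1 on the opposite strand with 0 shared exon bases, Gfap and S1pr3 overlap antisense RNAs, and Serpina3n has near paralogs. Alternatives were edgeR, DESeq2, no filter, a filter of 1 CPM, no sex term, no block and each mouse as a fixed block. Others took batch 2 alone or left out single mice. The last 2, chosen after seeing the data, left out retinas with lens markers over 100 CPM or retinas poor in ganglion cell markers. The edgeR and DESeq2 fits had no mouse term, so both eyes of a mouse were taken as independent. The fixed block kept only mice with 1 PBS and 1 cytokine eye. Single mice left out were those with a cytokine retina, so mice with PBS retinas only stayed in. In the fit of 81 retinas, the batch 1 mice left out were those given IL1A+TNF. Tools were R 4.3.3, limma 3.58.1, edgeR 4.0.16, DESeq2 1.42.0, statmod 1.5.0, Python 3.11.15, numpy 2.4.6, scipy 1.17.1, pandas 2.3.3 and matplotlib 3.10.9.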

Additional observations from a re-analysis of the deposited data

Results flagged for a closer look

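The 10 genes were each read in the 11 groups of 4 to 10 retinas. In 11 of these 110 combinations of gene and group, 1 retina lay far from the rest: its gap to the nearest retina, as a share of the group's range on the log2 scale, passed Dixon's 95% critical value. Chance flags about 1 in 20 groups. Over all genes tested at day 2 the same measure passed in 6.04% of such combinations, and in 8.91% for the TNF retinas of day 14. The 10 genes were read in the same retinas, so the 11 cases are not independent. No explanation was tested.

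Mouse 59829 was the highest TNF retina of day 14 for 9 of the 10 genes, all but Aspg, and lay far from the rest by this measure for 3. Its Vim was 259 CPM with the next retina at 133 (gap share 0.662), its Serpina3n 225 with the next at 57.8 (0.647) and its Cd44 86.3 with the next at 33.6 (0.703). In the same group mouse 59712 was the lowest retina for all 10 genes, and its gap passed for none.

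Gfap was lowest in the IL1A+TNF retina of mouse 60780, at 123 CPM with the next at 226 (0.628). Vim was highest in the day 35 PBS retina of mouse 59732, at 95.7 with the next at 89.7 (0.796), and in the day 35 TNF retina of mouse 59894, at 105 with the next at 94.7 (0.584). Serpina3n was lowest in the treated WT retina of mouse 61720 in batch 2, at 209 with the next at 956 (0.690), and in the Sarm1KO PBS retina of mouse 61765, at 433 with the next at 937 (0.649). Steap4 was highest in the IL1A+TNF retina of mouse 60212, at 114 with the next at 81.4 (0.504), and lowest in the day 14 PBS retina of mouse 59712, at 1.44 with the next at 2.81 (0.714). Aspg was lowest in the treated WT retina of mouse 61721 in batch 2, at 0.182 with the next at 0.537 (0.718).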

How the results depend on the processing

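Of the counts of members called, 406 values under an alternative were within 1.5 times the reported count, 16 were lower and 1 was higher. Of the values for single members, 3979 had the same direction and side of the threshold, 51 lost their call, 14 gained one and 117 changed sign, none of them called under either setting and 75 of them with 1 mouse left out. The causes of the changes given here were not tested.

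Without the replicate block the counts called were 8 after IL1A+TNF, 8 after IL1A, 0 after TNF, 2 against IL1A, 8 against TNF, 7 in WT batch 2 and 7 in Sarm1KO. With each mouse as a fixed block the count in WT batch 2 was 4. Against IL1A the count was 1 without the lens-rich retinas and 1 to 3 with 1 mouse left out, and for the interaction it was 0 to 1 with 1 mouse left out. Without the 3 retinas poor in ganglion cell transcripts the count in Sarm1KO was 0. A filter of 1 CPM removed Aspg, which gives 7 after IL1A+TNF and 7 after IL1A.

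Log2 values that changed sign with each mouse as a fixed block were Lcn2 0.47, Timp1 0.43 and Steap4 0.60 for TNF at day 2, and Vim -0.052 and Serpina3n -0.085 for TNF at day 14. By edgeR and DESeq2 these were Timp1 0.075 and 0.088 for the interaction, Gfap 0.015 and 0.011 for Sarm1KO against WT in PBS, Hspb1 0.061 and 0.049 in IL1A+TNF, and Vim 0.046 and 0.039 for the genotype difference in the treatment effect. Batch 2 alone gave Gfap 0.059 in PBS, and Vim -0.088, Steap4 -0.042 and Hspb1 0.0084 in IL1A+TNF. In IL1A+TNF, no filter gave Vim -0.0075 and Steap4 -0.015, and a filter of 1 CPM gave Steap4 -0.0057.

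Without the lens-rich retinas they were Timp1 0.011 for the interaction, Aspg -0.077 for sex, Vim -0.0097 for TNF at day 14, Hspb1 -0.066 in WT batch 2 and Vim -0.042 for Sarm1KO against WT in PBS. For the TNF effect against day 2 they were Gfap -0.0047, Vim -0.055 and Cd44 -0.0097 at day 14 and Vim 0.027 at day 35. For genotype by treatment they were Vim 0.057, Lcn2 0.26, S1pr3 0.31, Cd44 0.21 and Hspb1 -0.022. Without the 3 retinas poor in ganglion cell transcripts they were, in IL1A+TNF, Vim -0.64, Lcn2 -0.082, Timp1 -0.46, Steap4 -0.0079, S1pr3 -0.41, Cd44 -0.60 and Aspg -0.081, and for genotype by treatment Hspb1 -0.13.

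Leaving out 1 mouse gave, for TNF at day 2, Vim -0.0062 to 0.16, Lcn2 -0.33 to 0.23, Timp1 -0.32 to 0.089, Steap4 -0.25 to 0.13 and S1pr3 -0.0070 to 0.093. It gave Aspg -0.33 to 0.0033 against IL1A, Timp1 -0.30 to 0.12 for the interaction, Vim -0.0097 to 0.20 and Hspb1 -0.27 to 0.087 for TNF at day 14, and Hspb1 -0.0022 to 0.18 at day 35. For Sarm1KO against WT it gave Gfap -0.25 to 0.17, Vim -0.11 to 0.19 and S1pr3 -0.035 to 0.33 in PBS, and Vim -0.19 to 0.17, Steap4 -0.17 to 0.10 and Hspb1 -0.21 to 0.094 in IL1A+TNF. For genotype by treatment it gave Vim -0.27 to 0.28, Lcn2 -0.55 to 0.27, Timp1 -0.61 to 0.11, S1pr3 -0.27 to 0.25, Cd44 -0.43 to 0.28, Hspb1 -0.013 to 0.28 and Aspg -0.46 to 0.059.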
